A study of Monodelphis domestica and Mus musculus with 2 samples.

Results

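The astrocytes described here are 429 segmented cells of mouse primary visual cortex (V1) in a Stereo-seq section, a spatial assay that captures polyadenylated RNA on a chip of barcoded spots and assigns each unique molecular identifier (UMI) to a position. They were taken as the cells of the V1 regions that passed the authors' filter and carry the deposited subclass label Astro together with the class label non-neuronal. They are 429 of 9127 filtered V1 cells, or 4.70% (95% Clopper-Pearson interval 4.28 to 5.15%), of 120239 segmented cells of the mouse section and of 200608 segmented cells of the series. The animal was 1 adult male wild-type C57BL/6J mouse at about postnatal day 40 (P40), with no transgene or treatment named in the labels, and the 4 V1 regions come from coronal slices frozen in 1 block and cut as 1 section of 10 µm. The series also holds 1 section of a male opossum of about 6 months, which is used here for the marker genes alone. The astrocytes of the 4 regions number 186, 76, 88 and 79.

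Astrocytes are the star-shaped glial cells of the brain. They clear glutamate from the space around synapses, buffer potassium, supply neurons with lipids and energy substrates, and touch blood vessels with end feet that carry the water channel aquaporin-4. Their processes are very thin and fill the space between neuronal cell bodies, so that the outline of a cell in a tissue section is shared with its neighbors. Cortical astrocytes differ between layers, and Chrdl1 in upper layers and Gfap near the surface and the white matter are known examples.

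With 1 animal and 1 section no difference could be tested. Regions are parts of that section and not replicates, and each value is therefore given with the counting error of its UMIs and with the value in every region. Levels are UMIs per 10000 UMIs, summed over the cells of a group, and intervals are exact at 95%. A fold is a ratio of 2 such levels. The subclass labels had been assigned by nearest-neighbor classification from the expression of these same cells, and comparisons of astrocytes with other cells are accordingly descriptions of what the label gathers. Position and depth in the cortex were not used by the labels. The astrocytes held 531281 UMIs, with a median of 1147 UMIs and 766 genes per cell, and the 8698 other V1 cells held 11991406 UMIs, with medians of 1312.5 and 851. Of the 429 cells, 250 had received their subclass label in the first round of classification, 100 in the second and 79 in the third.

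The defining markers were higher in the labeled cells, which describes the label and does not test it, and the contrast was modest. Summed over Slc1a2, Slc1a3, Aqp4 and Gja1, the level was 29.2 in astrocytes (27.8 to 30.7) and 14.5 in the other V1 cells (14.3 to 14.7), a fold of 2.02 (1.92 to 2.13). The 4 regions gave 28.5, 26.8, 30.4 and 32.0 in astrocytes against 14.5, 14.8, 14.7 and 14.0 in the other cells, and the groups did not overlap. The next highest subclass was L6b, deep excitatory neurons, at 22.9, but with 26 cells. Endothelial cells, oligodendrocytes and microglia followed at 17.1, 16.5 and 16.4.

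**Figure D1:**
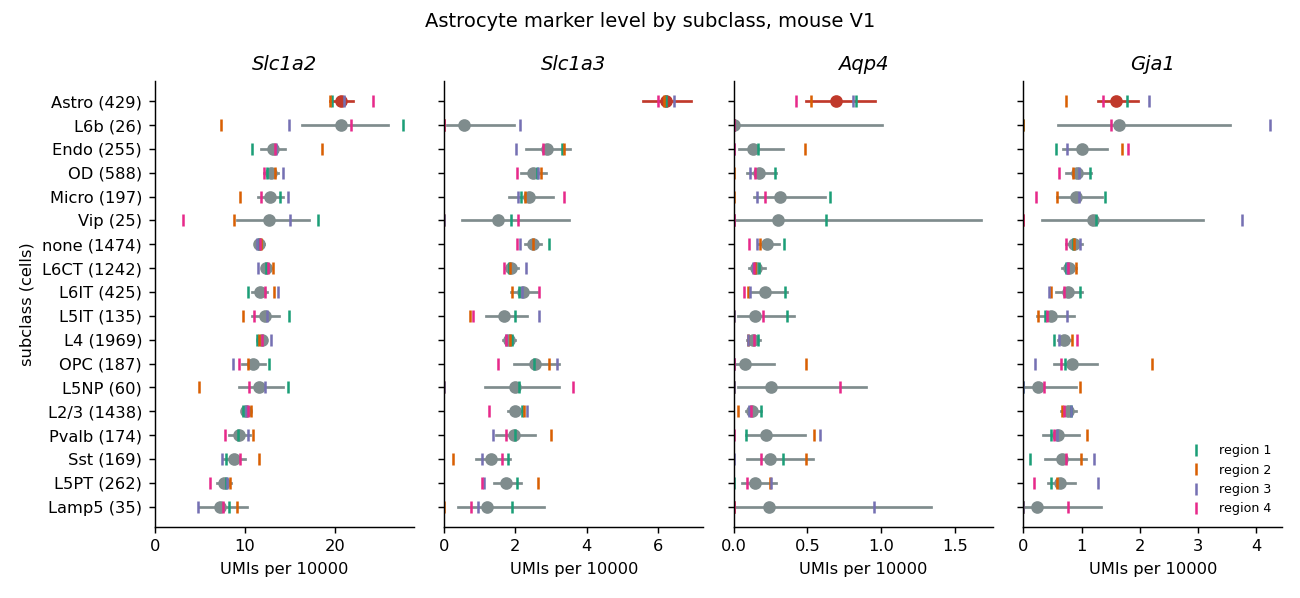
Level of each astrocyte marker (x axis, UMIs per 10000) in every V1 subclass with at least 25 cells (y axis, number of cells in parentheses, ordered by the summed level); dots are levels over all 4 regions, lines are exact 95% Poisson intervals and ticks are the 4 regions. Slc1a3 is at 6.23 in astrocytes and at 2.07 in the other V1 cells, and Slc1a2 is found at 7 or more in every subclass.

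The 4 markers differed in how sharply they set astrocytes apart. Slc1a2, the glutamate transporter GLT-1, had levels of 19.7, 19.4, 20.9 and 24.2 in the astrocytes of the 4 regions. The other cells had 11.3, 11.7, 11.7 and 11.3, so that the fold was 1.80 (1.70 to 1.92). Slc1a3, the glutamate transporter GLAST, had 6.22, 6.19, 6.47 and 6.00 in astrocytes and 2.23, 2.13, 2.04 and 1.79 in other cells, a fold of 3.00 (2.67 to 3.37) with the narrowest spread over regions. Aqp4 had the largest fold of the 4 at 4.28 (2.93 to 6.11), from only 37 UMIs in all astrocytes and a level of 0.696 against 0.163. Gja1, which encodes the gap junction protein connexin 43, had 85 UMIs and a fold of 2.08 (1.65 to 2.60). Its level in region 2 was 0.734 in astrocytes and 0.828 in other cells, so that Gja1 was higher in 3 of the 4 regions.

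Most astrocytes held a marker UMI, and so did most other cells. At least 1 UMI of any marker was found in 89.0% of astrocytes (85.7 to 91.8%, 382 cells) and in 72.9% of glutamatergic neurons (71.8 to 74.0%), which should lack these transcripts apart from traces of Slc1a2, at median depths of 1147 and 1325 UMIs. After each cell was thinned to 300 UMIs, leaving out 10 astrocytes and 72 glutamatergic neurons, the shares were 53.5% (48.6 to 58.3%) and 33.0% (31.8 to 34.2%). Few cells held several markers. Of the 429 astrocytes, 47 held none of the 4, 204 held 1, 141 held 2, 35 held 3 and 2 held all 4, and 3 or 4 markers were thus seen in far fewer cells than 1 or 2. The share of astrocytes with a UMI was 79.5% for Slc1a2, 39.2% for Slc1a3, 14.9% for Gja1 and 6.06% for Aqp4.

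Markers of other cell types were found in the segmented astrocytes at levels close to those of the other cells. The 6 summed glutamatergic markers, among them Slc17a7, Camk2a and Nrgn, were at 41.6 (39.9 to 43.3) in astrocytes and at 42.6 in glutamatergic neurons, a ratio of 0.975 (0.934 to 1.02). By region, the level in astrocytes was 41.6, 39.6, 41.9 and 43.1. Slc17a7, the vesicular glutamate transporter of cortical excitatory neurons, stood at 9.62 in astrocytes and 10.5 in other V1 cells. Oligodendrocyte markers were at 28.4 in astrocytes and 29.2 in other V1 cells, a ratio of 0.972 (0.922 to 1.02), and GABAergic markers at 10.4 and 11.6 (0.897, 0.823 to 0.977). Microglia markers were at 3.92 and 3.11 (1.26, 1.09 to 1.45), with 2.92, 6.08, 4.86 and 3.05 in the regions, and the astrocytes of regions 2 and 3 were the higher ones. Deep layer neuron markers were the only list of another cell type with a ratio under 0.8, at 0.771 (0.699 to 0.848). The part of such transcripts in the folds of single genes was not tested.

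Astrocyte levels also depended on how many UMIs a segmented cell held. When the 429 astrocytes were ordered by UMIs and divided into 3 equal groups of 143, the summed markers were at 37.8 (34.0 to 42.0) in the group with a median of 686 UMIs, at 30.2 (27.6 to 32.9) at 1147 UMIs and at 25.6 (23.8 to 27.6) at 1765 UMIs. The smallest cells thus had the highest marker level. Their glutamatergic markers were at 44.1, 39.6 and 41.9 in the same order, and their oligodendrocyte markers at 25.7, 26.6 and 30.5. The distance to the nearest glutamatergic neuron gave a similar order. The 60 astrocytes whose centers lay under 10 µm from such a neuron, with a median of 659.5 UMIs, had a marker level of 38.5 (33.0 to 44.7), the 247 at 10 to 15 µm had 29.9 (28.0 to 31.9), and the 122 at 15 µm or more, with a median of 1535 UMIs, had 25.9 (23.7 to 28.3). Distance and size cannot be told apart here.

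UMIs of astrocyte markers in other cells were set against the distance to the nearest astrocyte. In the 110 other V1 cells under 10 µm from an astrocyte the summed markers were at 18.2 (15.4 to 21.3), and they were at 15.8 from 10 to 20 µm, at 14.8 from 20 to 30 µm, at 14.2 from 30 to 50 µm and at 13.9 (13.5 to 14.3) beyond. The nearest cells were small, with a median of 747.5 UMIs against 1358 at 50 µm or more. Cells under 10 µm had 1.30 times the level of cells at 30 µm or more (1.10 to 1.52). In region 3 the nearest cells had 25.7 against 16.1, 16.1 and 14.4 in the other regions, and without region 3 the ratio was 1.12 (0.912 to 1.37). With astrocytes of the first labeling round it was 1.21 (0.960 to 1.51). Among the other non-neuronal cells the level was 17.1 (12.1 to 23.5) under 10 µm and 17.0 (16.0 to 18.1) at 50 µm or more. Even the farthest cells kept a level near 13.9, that is, most marker UMIs of other cells were not found beside a labeled astrocyte. The other V1 cells do include cells with another astrocyte label. There were 147 with a deposited astrocyte type but not the Astro subclass, at 26.2 (24.0 to 28.7). A further 18 had the Astro subclass outside the non-neuronal class, at 25.2 (19.1 to 32.6).

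Across genes, 2423 were measured deeply enough for at least 50 UMIs to be expected in astrocytes from their level over all V1 cells. Of these, 12 (0.495%) were at least 2-fold higher in astrocytes and higher in all 4 regions, and 8 (0.33%) were at least 2-fold lower and lower in all 4. Among the higher ones, 6 belong to the lists of astrocyte functions. The median log2 fold of all 2423 genes was -0.03.

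Zbtb20, a transcription factor of astrocyte development on the forward strand of chromosome 16 from 42696093 to 43462965, led with 3.82 in astrocytes and 1.09 in other cells, a fold of 3.51 (3.01 to 4.07). Its levels in the astrocytes of the 4 regions were 4.18, 4.30, 2.97 and 3.48, against 1.15, 0.988, 1.07 and 1.08 in the other cells. Every astrocyte value exceeded every other value, for a gene picked by its fold in these same cells. Slc1a3, at 3.00, was likewise higher in every region. Qk, an RNA-binding protein of glia, had a fold of 2.65 (2.33 to 3.00), and Trpm3, a cation channel gene, 2.48 (2.08 to 2.95). Apoe, the main lipid carrier made by astrocytes, was at 5.83, 6.61, 4.14 and 2.84 in astrocytes and at 1.99 to 2.44 in other cells, a fold of 2.27 (2.00 to 2.58), and region 4 was the lowest. Nfia, a transcription factor of glial fate, had 2.17 (1.76 to 2.65), Mfge8, a secreted bridging protein for engulfment, 2.13 (1.79 to 2.50), Frmd4a 2.13 (1.82 to 2.47), and Kirrel3, an adhesion molecule, 2.04 (1.67 to 2.47). Against the other non-neuronal cells alone, Apoe, Qk, Mfge8 and Nfia stayed under 2-fold, with log2 folds of 0.62, 0.63, 0.73 and 0.85. Zbtb20, Slc1a3, Kirrel3, Frmd4a and Trpm3 stayed above it, with 1.20, 1.21, 1.51, 1.54 and 1.59.

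Another 2 of the 12 carry the symbol LINC03051, ENSMUSG00000121927 and ENSMUSG00000121926, with folds of 3.33 (3.00 to 3.69) and 2.29 (2.05 to 2.56). In the GENCODE annotation of GRCm39 they lie on the forward strand of chromosome 16, from 39804723 to 41229914 and from 39804733 to 41996658. They overlap each other on the same strand, and the second also overlaps Lsamp, so that the split of UMIs between them is uncertain.

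The 8 genes on the low side were Ptprn2, Dpp10, Dlgap2, Unc5d, Pcdh15, Cntn5, Hs6st3 and Clip1, named after their values were seen. Their levels in astrocytes were 0.433 to 0.494 times those of other cells. Dpp10, which encodes an auxiliary subunit of potassium channels, was at 5.23 in astrocytes, 14.0 in glutamatergic neurons and 5.97 in the other non-neuronal cells, and Dlgap2, a postsynaptic scaffold, at 1.20, 3.02 and 1.25. Clip1 was at 0.471, 0.932 and 0.934 in the same order, and Ptprn2 at 0.471, 1.18 and 0.750. Astrocytes thus lay below both for Dpp10, Dlgap2, Clip1 and Ptprn2, but only by little against the other non-neuronal cells for Dpp10 and Dlgap2. Unc5d and Pcdh15 were about level with the other non-neuronal cells, at 0.678 against 0.682 and 0.696 against 0.693. Cntn5 and Hs6st3 were above them, at 0.696 against 0.624 and 1.30 against 1.00. The 8 are long genes, with a median span of 775 kb against 35.3 kb for all genes tested, and the higher 12 are long as well, with a median of 450 kb.

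Several genes with a larger contrast fell under the minimum, which is set by the level over all V1 cells. Among genes with at least 30 UMIs in astrocytes that were higher in all 4 regions, the highest folds were those of Gli3 (14.3, 9.72 to 20.7, from 48 UMIs), Gm13322 (10.8), Gpc5 (9.53, 8.35 to 10.9), Nhsl1 (8.28), Prex2 (6.75, 5.36 to 8.45), Lama2 (6.64), Npas3 (6.48, 5.31 to 7.85), Mertk (6.07, 4.70 to 7.77), 4930488L21Rik (5.76), Luzp2 (4.85, 4.15 to 5.64), Dio2 (4.54, 3.49 to 5.84) and Daam2 (4.51). This list was chosen after the values were seen, and a gene enters it only by being high in astrocytes. Gpc5, a membrane-bound glypican on the forward strand of chromosome 14 from 115329647 to 116762591, was the most abundant of them with 324 UMIs. Its levels were 7.09, 5.45, 4.32 and 6.43 in the astrocytes of the 4 regions and 0.682, 0.683, 0.647 and 0.526 in other cells, and 29.6% of astrocytes held a UMI. Mertk, a receptor for engulfment of synapses and debris, had 1.74, 1.15, 1.89 and 1.05 against 0.240, 0.252, 0.298 and 0.241. Both genes had larger folds than each of the 4 markers, although the interval of Mertk overlaps that of Aqp4. Other glia held them too. Mertk was at 1.61 in microglia, found in 14.7% of those cells and in 12.1% of astrocytes, and Gpc5 was at 2.66 in oligodendrocyte precursors. Dio2 encodes the deiodinase that activates thyroid hormone in astrocytes, and Gli3 a factor of the hedgehog pathway.

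**Figure D2:**
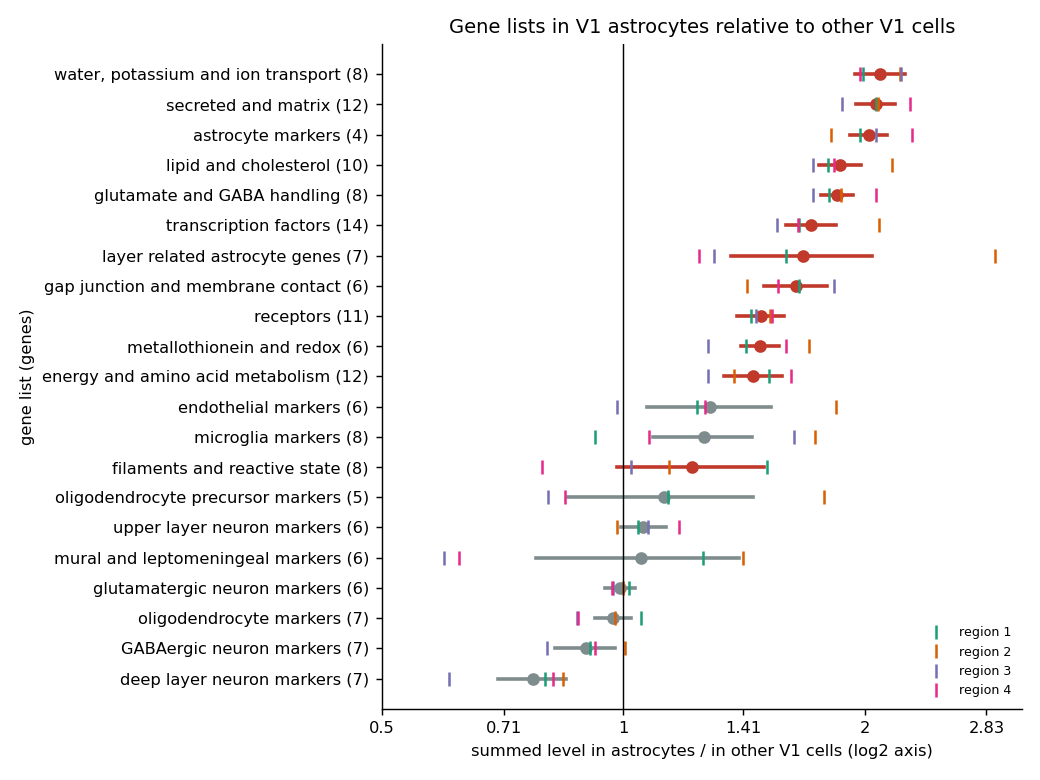
Summed level of each gene list in astrocytes over that in other V1 cells (x axis, log2 scale; number of genes in parentheses on the y axis); dots are ratios over all regions, lines exact 95% intervals and ticks the 4 regions (a region with 0 UMIs has no tick). Lists of astrocyte genes (red) lie between 1.22 and 2.09, and lists of other cell types (gray) between 0.771 and 1.28.

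Genes of astrocyte functions were higher as a body, which describes the label and does not test it. Their lists include the 4 defining markers and were chosen with earlier results of these data known. The 11 lists hold 97 genes, of which 32 were deep enough to be tested. Of those 32, 24 were higher in astrocytes in all 4 regions at any size, or 75%, where 6.89% of all tested genes were, and 0 were lower in all 4, where 14.6% of all tested genes were. Their median log2 fold was 0.66. The 9 lists of other cell types hold 58 genes, 25 of them tested, of which 1 was higher in all 4 regions and 2 were lower.

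Glutamate and GABA handling had a summed fold of 1.84 (1.76 to 1.93), and all 8 genes were above the other cells. Glul, glutamine synthetase, was at 5.57 against 3.25 (1.71, 1.52 to 1.93), with 5.70, 6.92, 4.68 and 4.95 in the regions. The GABA transporter gene Slc6a11 had a fold of 1.94 (1.5 to 2.48) and was higher in all 4 regions.

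Water, potassium and ion transport had the highest summed fold, 2.09 (1.94 to 2.24). The inward rectifier Kcnj10 was at 0.696 against 0.371 (1.88, 1.30 to 2.63), Atp1b2 at 2.26 against 1.31 (1.73, 1.43 to 2.08), Dtna at 2.24 against 1.32 (1.70, 1.4 to 2.05), and the bicarbonate transporter gene Slc4a4 at 1.05 against 0.570 (1.85, 1.38 to 2.43).

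Gap junction and membrane contact genes summed to 1.64 (1.49 to 1.79). Gjb6, connexin 30, had a larger fold than Gja1, 2.66 (1.98 to 3.53), and was higher in every region. Hepacam, an adhesion molecule of end feet, had 2.28 (1.62 to 3.13) and its partner Mlc1 1.80 (1.47 to 2.20).

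Lipid and cholesterol genes summed to 1.86 (1.75 to 1.98). Beside Apoe and Mfge8, Acsbg1, an acyl-CoA synthetase, had 3.25 (2.30 to 4.48), Pla2g7 2.64 (2.15 to 3.21), Prdx6 1.82 (1.52 to 2.17) and Clu, clusterin, 1.64 (1.42 to 1.88). Fabp7, a fatty acid binding protein of radial glia and young astrocytes, had 1 UMI in all 429 cells.

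Secreted and matrix genes summed to 2.06 (1.95 to 2.18), with Gpc5 and Mertk among them. Htra1, a secreted serine protease, had 3.79 (3.04 to 4.67), Megf10, an engulfment receptor, 4.62 (2.91 to 7.09) from 26 UMIs, Bcan, brevican, 2.18 (1.72 to 2.74), and Gpc6 2.85 (2.17 to 3.70). Sparcl1, the synapse-promoting protein hevin, was the most abundant of the list at 9.58, yet other cells had 7.22 and the fold was 1.33 (1.21 to 1.45). Ncan, neurocan, was at 1.92 against 1.79 (1.07, 0.870 to 1.31).

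Receptors gave 1.48 (1.39 to 1.59) as a sum, with Ntrk2 and Grm5, which neurons express as well, at the low end. Fgfr3 had 3.46 (2.77 to 4.29), F3, tissue factor, 3.49 (2.38 to 4.97), Ntsr2 2.47 (1.83 to 3.27), Grm3 2.24 (1.78 to 2.78), S1pr1 2.22 (1.74 to 2.80) and Gpr37l1 2.22 (1.79 to 2.73). All of these were higher in each region. Grm5 was at 3.29 against 3.80, a fold of 0.867 (0.741 to 1.01), and P2ry1 had 0 UMIs in the astrocytes, which allows a level of up to 0.0565, that of 3 UMIs.

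Transcription factors summed to 1.71 (1.59 to 1.84). Rfx4 had the second largest fold of any list gene after Gpc5, 7.22 (4.36 to 11.6), from 24 UMIs. Id4 had 2.86 (2.14 to 3.76) and Rorb, better known from layer 4 neurons, 1.51 (1.19 to 1.9). Sox9, a standard nuclear marker of astrocytes, was found in 3.03% of the cells, with 18 UMIs and a fold of 1.30 (0.759 to 2.09).

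Energy and amino acid genes gave 1.45 (1.34 to 1.57), and metallothionein and redox genes 1.48 (1.4 to 1.56). Aldoc, the astrocyte aldolase, had 1.52 (1.29 to 1.78), Pygb, glycogen phosphorylase, 1.83 (1.46 to 2.26), Slc7a10 3.51 (2.39 to 5.03) and Aldh1l1, a common astrocyte marker, 2.18 (1.45 to 3.18) from 30 UMIs. Mt3 was at 5.76 against 4.47 (1.29, 1.14 to 1.45), and Cst3, cystatin C, at 16.4 against 10.7 (1.53, 1.43 to 1.64).

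Filaments and reactive state genes were scarce. They summed to 1.81 against 1.48 in other cells, a fold of 1.22 (0.982 to 1.5) whose interval includes 1. Gfap had 11 UMIs in the 429 astrocytes, Vim 13, Serpina3n 3 and Lcn2 0, and no gene of this list was higher in all 4 regions. The V1 regions, as the authors drew them, leave out the surface layer and the white matter, near which Gfap is known.

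In the opossum section the same marker genes gave larger contrasts for 3 of the 4. Over 359 astrocytes of its V1 regions chosen by the same labels, Slc1a2 had a fold of 6.42 (5.99 to 6.88), Gja1 4.52 (4.04 to 5.05) and Slc1a3 3.74 (3.29 to 4.24), and Aqp4, at 3.56 (3.01 to 4.19), lay within the mouse interval. Slc1a2 was at 26.5 in opossum astrocytes and at 4.12 in other opossum cells. Species, age, block and sequencing cannot be told apart in this comparison.

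The deposited type labels divide the astrocytes in 2 main groups. Of the 429 cells, 163 were labeled Astro_A and 169 Astro_B, 63 had no type, and 34 carried the type of another cell, among them 18 Micro and 10 L4_B. The summed markers were alike in the 2 types, at 30.8 (28.5 to 33.2) and 31.1 (28.7 to 33.7), and lower in cells without a type, at 23.2 (19.8 to 27.0), and with another type, at 22.9 (18.6 to 27.9).

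The types, which had been set from expression so that these values are a description, differed in which astrocyte genes they held. Among genes with at least 100 UMIs over both, Trpm3, Rora, Msi2, Npas3 and Qk had the highest ratios of Astro_A over Astro_B in all 4 regions. Trpm3 had 121 UMIs in Astro_A and 14 in Astro_B, and Rora, a nuclear receptor, 161 and 26. The opposite end included Apoe, Dync1li2, Reep5 and Hmgcs1, an enzyme of cholesterol synthesis. Apoe was 2.96 times as high in Astro_B, with 166 UMIs against 61. Of the list genes, Gpc5 was at 12.8 (10.9 to 14.96) in upper Astro_A cells and at 3.48 (2.35 to 4.97) in upper Astro_B cells, and Mertk had 62 UMIs in Astro_A and 6 in Astro_B. Aqp4 went the other way, with 8 and 26 UMIs. Malat1, a long non-coding RNA kept in the nucleus, was at 62.6 in Astro_A and 16.8 in Astro_B cells, and at 35.6 in all astrocytes against 23.4 in the other V1 cells. Several features carry the symbol Malat1 in the annotation, and which of them these values cover is not stated here. The 5 genes of Astro_A span 128 to 856 kb and the 4 named of Astro_B 4.91 to 29.2 kb. The part of nuclear RNA in the difference between the types was not tested.

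Depth was measured from the upper edge of each region, at 0, to the lower edge, at 1, over heights of 774, 697, 624 and 699 µm. Astrocytes were spread over the whole height. Their numbers in 10 equal bins from top to bottom were 54, 44, 50, 49, 37, 42, 48, 34, 35 and 36, and their share of all cells lay between 3.74% and 6.69%. The interquartile range of relative depth was 0.482, with 0.557, 0.501, 0.505 and 0.429 in the regions. In the upper part, at a depth under 0.5, lay 234 astrocytes, or 54.5% (49.7 to 59.3%), where 53.9% of the other cells lay. By region the share was 51.6%, 57.9%, 56.8% and 55.7%.

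**Figure D3:**
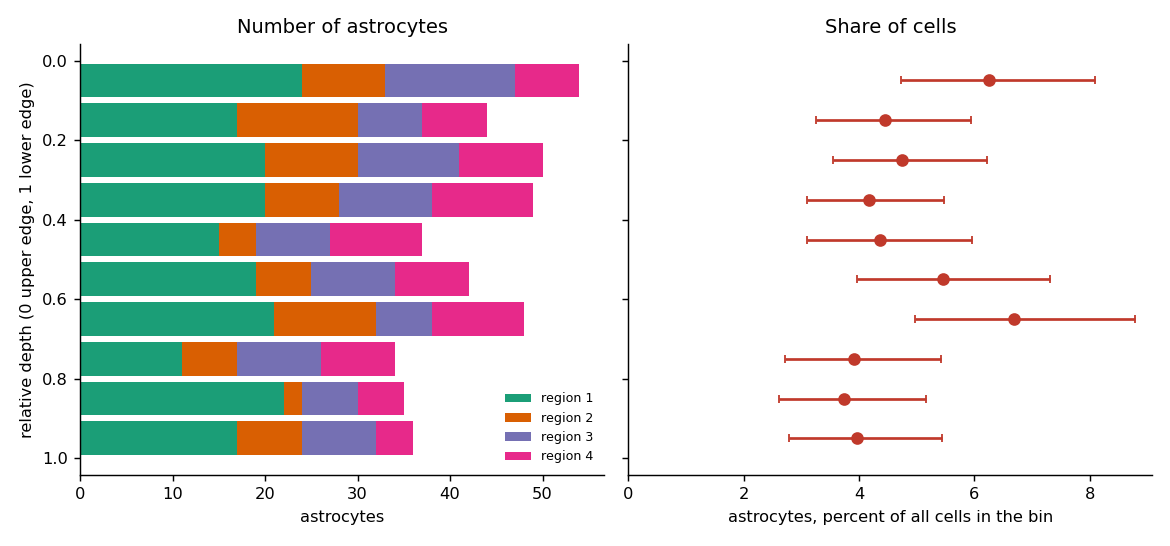
Astrocytes by relative depth (y axis, 0 at the upper and 1 at the lower edge of each region): their number in 10 bins, stacked by region (left), and their percent of all cells of the bin with exact 95% Clopper-Pearson intervals (right). Astrocytes occur in every bin and region, with bin shares between 3.74% and 6.69%.

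The 2 types had different depths over all regions. Astro_A cells had 60.1% (52.2 to 67.7%) in the upper part and a median depth of 0.391, and Astro_B cells 46.2% (38.5 to 54.0%) and 0.549. The share was higher for Astro_A in each region, at 60.9%, 75.9%, 55.9% and 50% against 46.9%, 40.6%, 51.5% and 43.5%. The pooled intervals overlap, and in region 3 the median depth of Astro_A was greater than that of Astro_B, at 0.462 against 0.425.

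The summed markers differed by less than their counting error between upper and lower astrocytes, 29.3 (27.3 to 31.5) and 29.1 (27.1 to 31.3), a ratio of 1.01 (0.911 to 1.11). By region the ratio did not keep 1 direction, and without region 3 it was 1.13 and without region 1 it was 0.904. Upper astrocytes had a median of 1106 UMIs and lower ones 1264, and the upper part held 64.3% of the 143 astrocytes with the fewest UMIs and 44.8% of the 143 with the most. The part of cell size in the ratios by depth was not tested. Gja1 was the exception among the 4, with 30 UMIs and a level of 1.11 in upper and 55 UMIs and a level of 2.11 in lower astrocytes. It was lower in the upper part in regions 1, 3 and 4, at 1.16, 1.73 and 0.578 against 2.38, 2.62 and 2.32, and not in region 2, at 0.815 against 0.648. Its UMIs were under the minimum for a call.

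Of 1025 genes with at least 100 UMIs in the astrocytes, 35 (3.41%) were at least 1.5-fold higher in upper astrocytes and higher in all 4 regions, and 35 (3.41%) were at least 1.5-fold higher in lower ones and in all 4. The same ratio was also taken in the other V1 cells, for comparison with the layers around the astrocytes. Of the 35 upper genes, 31 had the same direction in other cells and 8 passed 1.5-fold there, and of the 35 lower genes 34 and 9. The matching shares over all 1025 genes are not given here, and whether these counts exceed them was not tested. With the log2 ratio of the other cells subtracted, 22 genes (2.15%) passed toward the upper part and 17 (1.66%) toward the lower part in all 4 regions, and these include 11 of the 35 upper and 14 of the 35 lower genes.

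**Figure D4:**
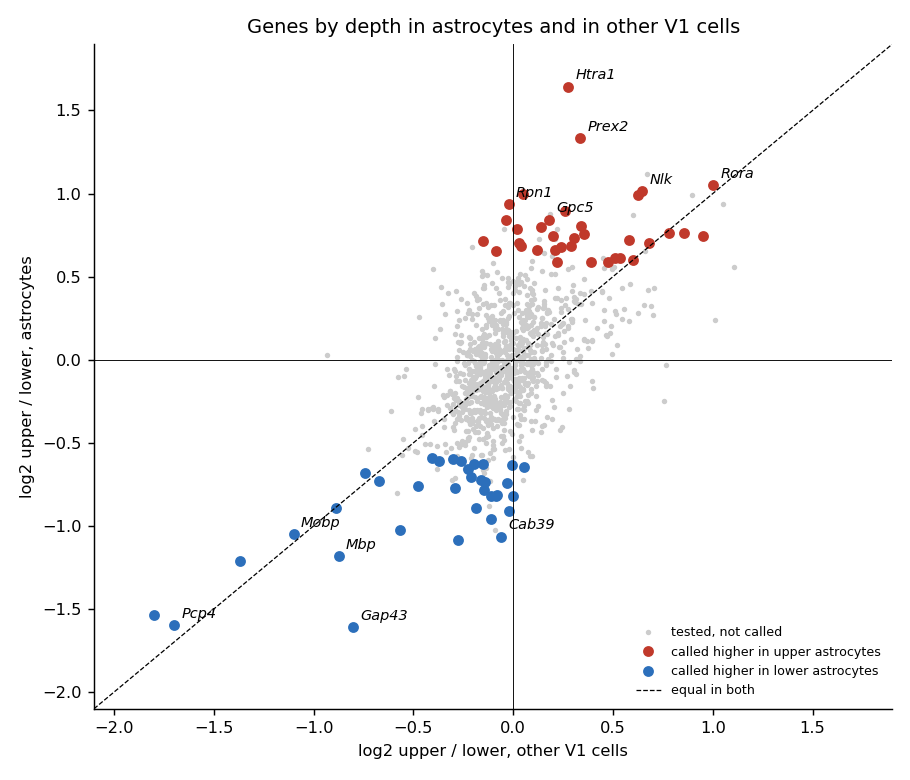
Log2 ratio of upper over lower level of 1025 genes in other V1 cells (x axis) and in astrocytes (y axis), with genes called higher in upper (red) or lower (blue) astrocytes and the line of equal ratios (dashed). Htra1 and Prex2 lie far above the line, and Pcp4 and Mobp lie on it.

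Htra1 had the largest ratio toward the upper part. It had 24, 27, 14 and 14 UMIs in the upper astrocytes of the 4 regions and 7, 5, 5 and 7 in the lower ones. The levels were 2.14, 5.50, 2.42 and 2.70 above and 0.594, 1.08, 0.936 and 1.63 below, and every upper value exceeded every lower value. Genes named by depth were picked by ratio among those with the same direction in all 4 regions. A lack of overlap is therefore in part set by the choice. Htra1 lies on chromosome 7 of GRCm39, forward strand, from 130537518 to 130587390, and overlaps Fgfr2 on the opposite strand. Whether strand was used in counting is not given in the sources used here. Over all regions it was 3.17 times as high in upper astrocytes (1.99 to 5.24), and its log2 ratio was 1.64 in astrocytes and 0.28 in other cells. Prex2, an exchange factor for Rac, lies on chromosome 1, forward strand, from 11063532 to 11373920. It had 74 and 28 UMIs and was 2.55 times as high (1.63 to 4.08), with log2 ratios of 1.33 and 0.34. Its levels were 2.32, 4.48, 2.60 and 2.12 above and 1.36, 0.648, 1.12 and 0.697 below, again without overlap. Gpc5 was 1.80 times as high in upper astrocytes (1.42 to 2.28), with 9.29, 7.54, 6.23 and 6.55 above and 5.01, 3.24, 2.25 and 6.27 below. Region 4 hardly differed. The log2 ratio of Gpc5 in other cells was 0.18.

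The other genes at the top fell in 2 kinds, those whose ratio was also high in other cells and those whose ratio there was near 0 on the log2 scale. Rora was 2.08 times as high in upper astrocytes (1.53 to 2.85), but its log2 ratio of 1.05 was matched by 1.00 in other cells. Nlk and Dusp6 had log2 ratios of 1.01 and 0.99 in astrocytes and 0.65 and 0.62 in other cells. Cuedc2, Rpn1, which encodes a subunit of the glycosylation machinery, Prickle2 and Atxn7l3b had log2 ratios of 1.00, 0.94, 0.90 and 0.84 in astrocytes and of 0.05, -0.02, 0.26 and -0.04 in other cells. By the difference of the log2 ratios, Htra1 (1.37), Prex2 (1.00), Rpn1 (0.96), Csrp1 (0.95) and Cuedc2 (0.95) led. Csrp1 was not higher in upper astrocytes in region 4 and was not called, and the difference of Prex2 in region 1 was 0.01.

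Toward the lower part, genes of oligodendrocytes and of deep layer neurons were among those called. Mbp, the myelin basic protein gene, was 2.27 times as high in lower astrocytes (1.87 to 2.76), Mobp 2.08 times (1.49 to 2.93), and Mal 2.05 times (1.34 to 3.19), and all are genes of myelin. Their log2 ratios were -1.18, -1.05 and -1.02 in astrocytes and -0.87, -1.10 and -0.57 in other cells. Pcp4, a marker of deep layer neurons, and Gm49948, which overlaps it on the same strand, had -1.60 and -1.53 in astrocytes and -1.70 and -1.80 in other cells. As lists, oligodendrocyte markers were 1.97 times as high in lower astrocytes (1.77 to 2.20) and 1.84 times as high in other lower cells, and deep layer neuron markers 2.69 (2.17 to 3.34) and 3.07 times. Upper layer neuron markers were 2.02 times as high in upper astrocytes (1.76 to 2.31) and 2.24 times in other upper cells. The astrocytes thus followed the cells around them in each of these 3 lists, and the part of these transcripts in the calls by depth was not tested.

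Gap43, a growth-associated protein of neurons and some astrocytes, had the largest ratio toward the lower part, 3.08 times as high (2.00 to 4.87). Its levels were 1.25, 0.408, 0.519 and 1.93 in upper and 3.22, 3.02, 3.18 and 3.95 in lower astrocytes, without overlap, and its log2 ratio was -1.61 in astrocytes and -0.80 in other cells. As for Htra1, the lack of overlap is in part set by the choice of the gene. Cab39, Tmx2, Ube2b, Higd1a and Gap43 had the lowest differences of log2 ratios, at -1.0, -0.89, -0.85, -0.82 and -0.81. Cab39 encodes a scaffold of the kinase LKB1, and its levels were 1.79, 1.83, 0.692 and 1.16 above and 2.04, 4.97, 3.74 and 2.79 below. Rab3c and 3110035E14Rik complete the 10 genes with the lowest ratios.

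Of the lists of astrocyte functions, 29 genes were deep enough for the comparison by depth, of which 2, Htra1 and Gpc5, were called toward the upper part and 1, Nfib, toward the lower part. Of all 1025 genes, 3.41% were called in each direction, so that counts this small are near the background. The summed ratios of upper over lower astrocytes lay between 0.859 and 1.20 for 9 of the 11 lists. Filaments and reactive state genes were at 0.553 (0.354 to 0.851) from 96 UMIs, with 0.658, 0.515, 0.308 and 0.691 in the regions and 0.844 in other cells, and layer related genes at 1.33 (0.889 to 1.99), with 0.884 in other cells. Receptors were at 1.20 (1.05 to 1.37), with 1.11 in other cells, and lipid and cholesterol genes at 0.859 (0.765 to 0.965), with 1.03. Sparcl1 was higher in the lower part in every region, with 8.13, 7.54, 7.44 and 8.48 above and 10.3, 11.7, 11.2 and 13.7 below, but by less than the fold set for a call, 1.42 (1.19 to 1.70).

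Of the 7 genes known for layer differences among astrocytes none reached the minimum. Chrdl1 had 12 UMIs in upper and 2 in lower astrocytes, a ratio of 5.78 with an interval from 1.29 to 53.2. Gfap had 2 and 9 UMIs, Il33 12 and 7, Unc13c 14 and 7, Id3 11 and 7, Id1 9 and 11, and Agt 2 and 2. The intervals of these 6 include 1, and a difference was not detectable with so few UMIs. For Gfap, the surface layer and the white matter also lay outside the regions.

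**Figure D5:**
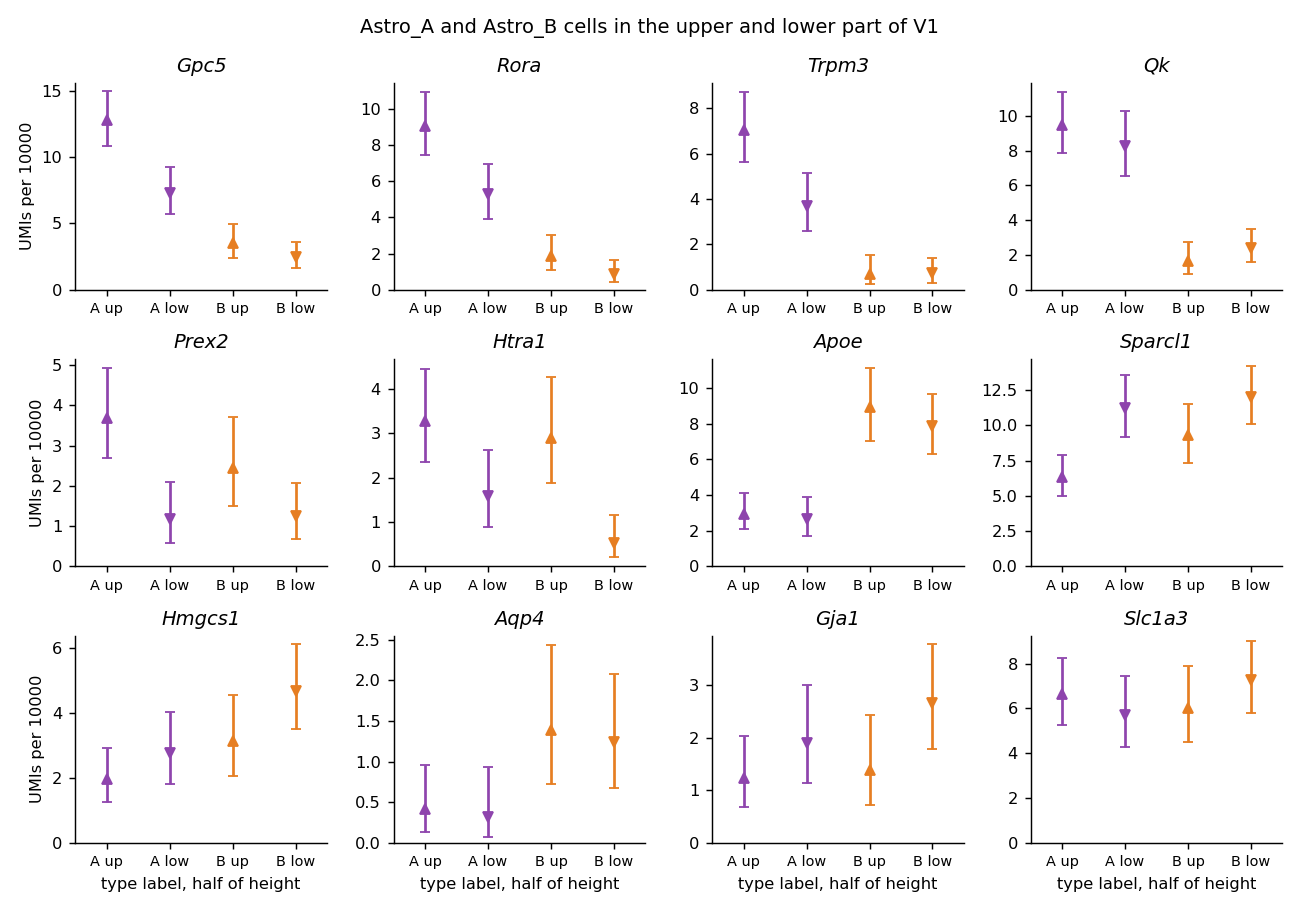
Level of 12 genes (y axis, UMIs per 10000, from 0) in Astro_A (purple) and Astro_B (orange) cells of the upper (up, 98 and 78 cells) and lower (low, 65 and 91 cells) part; lines are exact 95% Poisson intervals. Trpm3, Qk and Rora differ mainly by type, and Htra1 and Prex2 have higher values in the upper part of each type, with overlapping intervals for Htra1 in Astro_A and Prex2 in Astro_B.

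Since Astro_A cells lay higher, the depth ratios were also taken within each type. Htra1 was at 3.28 (2.34 to 4.47) in upper and 1.59 (0.889 to 2.62) in lower Astro_A cells and at 2.90 (1.88 to 4.28) and 0.531 (0.195 to 1.16) in Astro_B cells. Prex2 was at 3.69 (2.69 to 4.94) and 1.16 (0.581 to 2.08) in Astro_A and at 2.44 (1.51 to 3.72) and 1.24 (0.678 to 2.08) in Astro_B. Both genes had higher values above in both types, with overlapping intervals for Htra1 in Astro_A and Prex2 in Astro_B, and they had been picked for their ratios over these same cells. Gpc5 was at 12.8 (10.9 to 14.96) and 7.30 (5.68 to 9.24) in Astro_A, but at 3.48 (2.35 to 4.97) and 2.48 (1.65 to 3.58) in Astro_B, where the intervals overlap. Trpm3 had 7.05 (5.64 to 8.71) and 3.71 (2.58 to 5.15) in Astro_A and 0.696 and 0.708 in Astro_B. Gja1 was lower above in both types, at 1.23 and 1.91 and at 1.39 and 2.66, with overlapping intervals in each.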

How the data were processed

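With the Stereo-seq Analysis Workflow the authors aligned mouse reads to GRCm39 and segmented cells. They deposited UMI counts of each segmented cell, not normalized, with positions, V1 regions and labels. V1 cells with at least 50 genes and 100 UMIs passed their filter. UMI counts were summed per group here, with Poisson intervals for levels, conditional binomial intervals for ratios and Clopper-Pearson intervals for shares, all exact and for counting error only. The depth axis runs from L2/3 to L6CT in the smallest rectangle around a region. Log2 ratios carry a prior of 0.5 UMI. Doublets were not called. Of 61317 features, 61249 matched GENCODE.

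Named were the 4 markers, list members, the 12 highest folds, the 10 highest and 10 lowest ratios by depth, and the 5 highest and 5 lowest differences from other cells. Some of these genes are not reported here. Members and lists were chosen with earlier results of these data known. The software was matplotlib 3.10.9, pandas 2.3.3, scipy 1.17.1 and numpy 2.4.6 under Python 3.11.15.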

Additional observations from a re-analysis of the deposited data

How the results depend on the processing

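The 11 results were recomputed under 133 alternatives, of which 98 kept the value or count near that reported, 35 moved it and 0 reversed a called value. The marker ratio of upper over lower astrocytes, whose interval includes 1, lay on both sides of 1. The summed marker fold was 2.18 with astrocytes of the first labeling round, 1.73 against other non-neuronal cells, 2.23 as a mean of cells and 2.14 with the 332 cells of types Astro_A and Astro_B, the last chosen after the data were seen. Counts of genes moved most. Those higher in astrocytes were 20 against other non-neuronal cells, 6 with the minimum doubled and 269 with 10 UMIs as the minimum, and those lower were 5, 3 and 1441. Lower genes were also 3 in the first round, 28 against glutamatergic neurons and 16 as a mean of cells. With each cell thinned to 300 UMIs, 0 genes were higher among 317 tested and 5 lower, 0 were called upper among 97 and 5 lower, and 53.5% of astrocytes held a marker. By depth, the genes called upper and lower were 11 and 21 in the first round, 6 and 7 with the minimum doubled, 401 and 435 with 10 UMIs, 17 and 22 between the top and bottom of 3 equal parts, and 22 and 17 with other cells subtracted, and 12 were called upper in the 2 types. Leaving out 1 region gave 7 to 9 higher and 6 to 13 lower genes, 17 to 28 upper genes, and a marker ratio of upper over lower astrocytes from 0.904 without region 1 to 1.13 without region 3. The upper genes were 17 without region 1 and 21 without region 3, the lower genes 13 without region 3, and the higher genes 7 without region 4. The causes were not tested, except that a higher minimum, thinning, or fewer cells or regions test fewer genes. Without 1 region, 1227 to 1912 genes were tested against other cells, and 1318 in the first round, where the main setting had 2423. By depth, 419 to 781 were tested without 1 region and 464 in the first round, where the main setting had 1025. No paired analysis was possible because each group is 1 animal and the labels carry no replicate numbers. With 429 cells at a median of 1147 UMIs, depth limits most of all the scarce transcripts, such as Gfap and Aqp4. For Gfap, the regions also lack the surface layer and the white matter.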
